A study of Rattus norvegicus with 18 samples.

Results

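The nuclear genes that encode the proteins of the mitochondrial ribosome were followed in fast hindlimb muscle of rats that differed in their own diet and in the diet of their grandfather. Members are the genes whose symbol starts with Mrpl or Mrps followed by a number and that had a probe set of their own, with 1 probe set per gene. There were 64, 39 Mrpl genes of the large subunit and 25 Mrps genes of the small subunit, among 16856 genes with a probe set of their own. All 64 passed the filter on low signals and were tested among 12642 genes. The Mrpl or Mrps genes whose probe sets are shared with another symbol are no members, and their probe sets are described separately.

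RNA came from the extensor digitorum longus of 18 adult Sprague-Dawley females of the F2 generation, 1 whole-transcript array per animal. Groups are written as the diet of the F0 founder male and then the diet of the female. The chow/chow group held 5 females on chow from founders on chow, and the chow/high-fat group held 5 females on a high-fat diet from founders on chow. The high-fat/chow group held 4 females on chow from founders on a high-fat diet, and the high-fat/high-fat group held 4 females on a high-fat diet from such founders. The females had their own diet for 12 weeks, and 42/45% of the energy of the high-fat diet came from fat. The labels do not say how many founders or litters stand behind a lineage. Relatives may therefore be counted as independent animals, in the comparisons of the founder's diet and of the own diet. The number of arrays limits the precision. The deposited median intensity of an array lay between 55.02 and 73.97. Of 12 genes listed as markers of muscle fibres 9 were measured, each among the bright probe sets, such as Acta1 at a median intensity of 9332, and the slow fibre genes varied widely between animals (Myh7 from 480.4 to 3485).

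Mitochondria keep a small genome that encodes a few subunits of the respiratory chain and the RNAs of the mitochondrial ribosome. All proteins of this ribosome are encoded in the nucleus, made in the cytosol and imported. The small subunit binds the messenger and decodes it, and the large subunit forms the peptide bond and releases the growing chain through an exit tunnel to the inner membrane. Each ribosome needs 1 of each subunit, and muscle needs both to build respiratory chain complexes.

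Promoters are shown to let a reader see what the leading members have in front of them. Of the 64 members 52 matched the RefSeq promoter table of build GRCr8 (250 bases before the start to 50 after it). Mrps11, on the plus strand at chr1:142117014-142117313, and Mrpl47, on the minus strand at chr2:117447312-117447611, are shown because their starts face the start of another gene. Capitals mark the stretch from the partner's start to the member's own. The partner of Mrps11 is another member, Mrpl46, whose start lies 234 bases away, so their windows overlap by 267 bases. The partner of Mrpl47 is Ndufb5, a subunit of respiratory complex I, 244 bases away.
Mrps11: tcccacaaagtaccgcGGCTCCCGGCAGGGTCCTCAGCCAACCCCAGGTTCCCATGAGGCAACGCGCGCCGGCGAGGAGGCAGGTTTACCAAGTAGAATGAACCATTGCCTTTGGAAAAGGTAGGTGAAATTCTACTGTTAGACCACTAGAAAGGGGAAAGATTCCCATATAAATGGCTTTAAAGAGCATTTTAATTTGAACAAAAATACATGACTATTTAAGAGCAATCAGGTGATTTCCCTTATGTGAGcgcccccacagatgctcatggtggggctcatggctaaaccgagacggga
Mrpl47: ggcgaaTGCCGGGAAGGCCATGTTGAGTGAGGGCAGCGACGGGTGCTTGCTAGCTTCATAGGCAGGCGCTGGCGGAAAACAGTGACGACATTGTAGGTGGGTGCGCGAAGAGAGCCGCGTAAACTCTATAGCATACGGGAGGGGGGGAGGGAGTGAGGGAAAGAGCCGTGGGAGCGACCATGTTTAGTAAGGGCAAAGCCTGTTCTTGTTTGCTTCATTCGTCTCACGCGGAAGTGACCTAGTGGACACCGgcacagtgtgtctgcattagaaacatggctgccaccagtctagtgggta
Such a divergent start within 1000 bases was found for 15 of the 52 members, 28.8%, with Mrps11 and Mrpl46 both counted. Among protein-coding genes in the annotation, tested here or not, it was found for 1312 of 18999, 6.91%. The share among tested genes was not taken.

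The next pair, on the plus strand at chr3:138222074-138222373 (Mrps26) and chr1:207116680-207116979 (Mrpl23), is shown for short motifs searched on both strands. Capitals mark matches to the NRF1 core or to the ETS core CCGGAAG, which is bound by the ETS family, among them a subunit of NRF2. NRF1 and NRF2 are known regulators of nuclear genes for mitochondrial proteins. In Mrps26 the ETS core lies on the minus strand just before the NRF1 core, both downstream of the start.
Mrps26: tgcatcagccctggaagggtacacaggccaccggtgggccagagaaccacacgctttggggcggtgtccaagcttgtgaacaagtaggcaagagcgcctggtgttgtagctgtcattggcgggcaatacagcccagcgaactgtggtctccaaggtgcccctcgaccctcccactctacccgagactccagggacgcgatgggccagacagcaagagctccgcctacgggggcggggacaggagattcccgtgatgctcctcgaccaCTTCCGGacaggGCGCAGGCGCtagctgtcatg
Mrpl23: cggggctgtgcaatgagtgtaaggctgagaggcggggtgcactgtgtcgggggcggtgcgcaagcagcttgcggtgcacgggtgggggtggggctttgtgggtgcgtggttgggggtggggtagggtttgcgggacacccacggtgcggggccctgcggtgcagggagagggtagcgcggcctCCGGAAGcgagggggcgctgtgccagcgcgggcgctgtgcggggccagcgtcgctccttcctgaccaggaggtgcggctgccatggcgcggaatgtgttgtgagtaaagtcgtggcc
The NRF1 core was found in 7 of 52 member promoters (13.5%), against 4.67% of all 27457 promoters and 8.78% of those of tested genes. The ETS core was found in 17 (32.7%, against 9.21% and 15.5%), and the YY1 core ATGGCGG in 14 (26.9%, against 5.21% and 8.89%). The GC box GGGCGG was found in 25 (48.1%, against 34.7% and 58.3%) and TATAAA in 8 (15.4%, against 14.3% and 8.13%). Thus the NRF1, ETS and YY1 cores and TATAAA were more frequent among members than among either set of promoters. For TATAAA the excess over all promoters was slight. The GC box share of members lay between those of the sets. The median GC content of member promoters was 55.8%, against 60.0% for tested genes and 52.3% for all. A match is a stretch of letters, not a measured site.

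**Figure D1:**
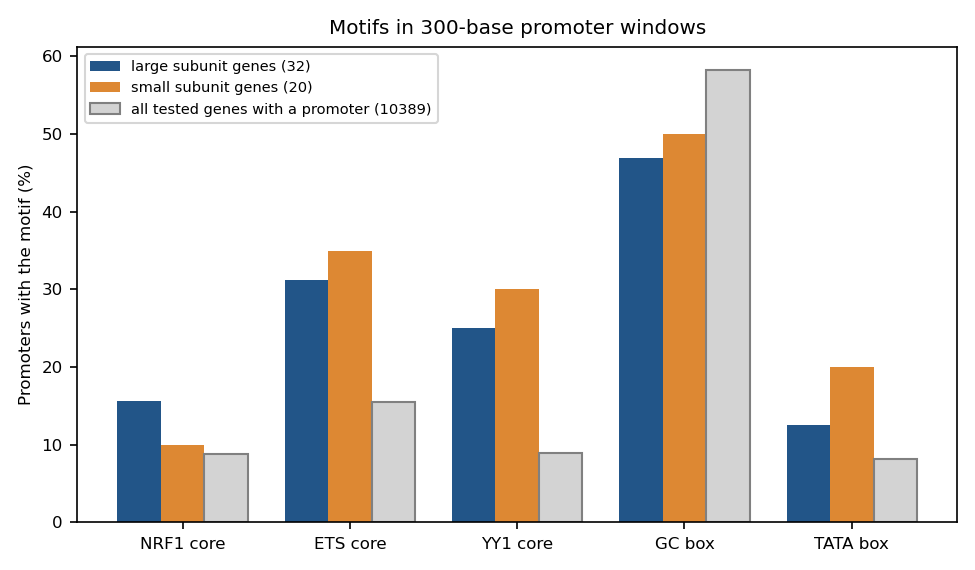
Share of promoters (percent, vertical axis) that hold each motif (horizontal axis), among the 32 large subunit genes, the 20 small subunit genes and the 10389 tested genes with a promoter in the RefSeq table. The ETS core stands above the 15.5% of the tested genes in both subunits (32.7% together), while the GC box is below their 58.3% in both.

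The mean log2 signals of the members lay between percentiles 36.6 and 99.6 of the genes tested, with a median at percentile 77.05. On the deposited scale single values ran from 62.33, for Mrpl2, to 5619, for Mrpl42. Levels of different probe sets are not compared.

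**Figure D2:**
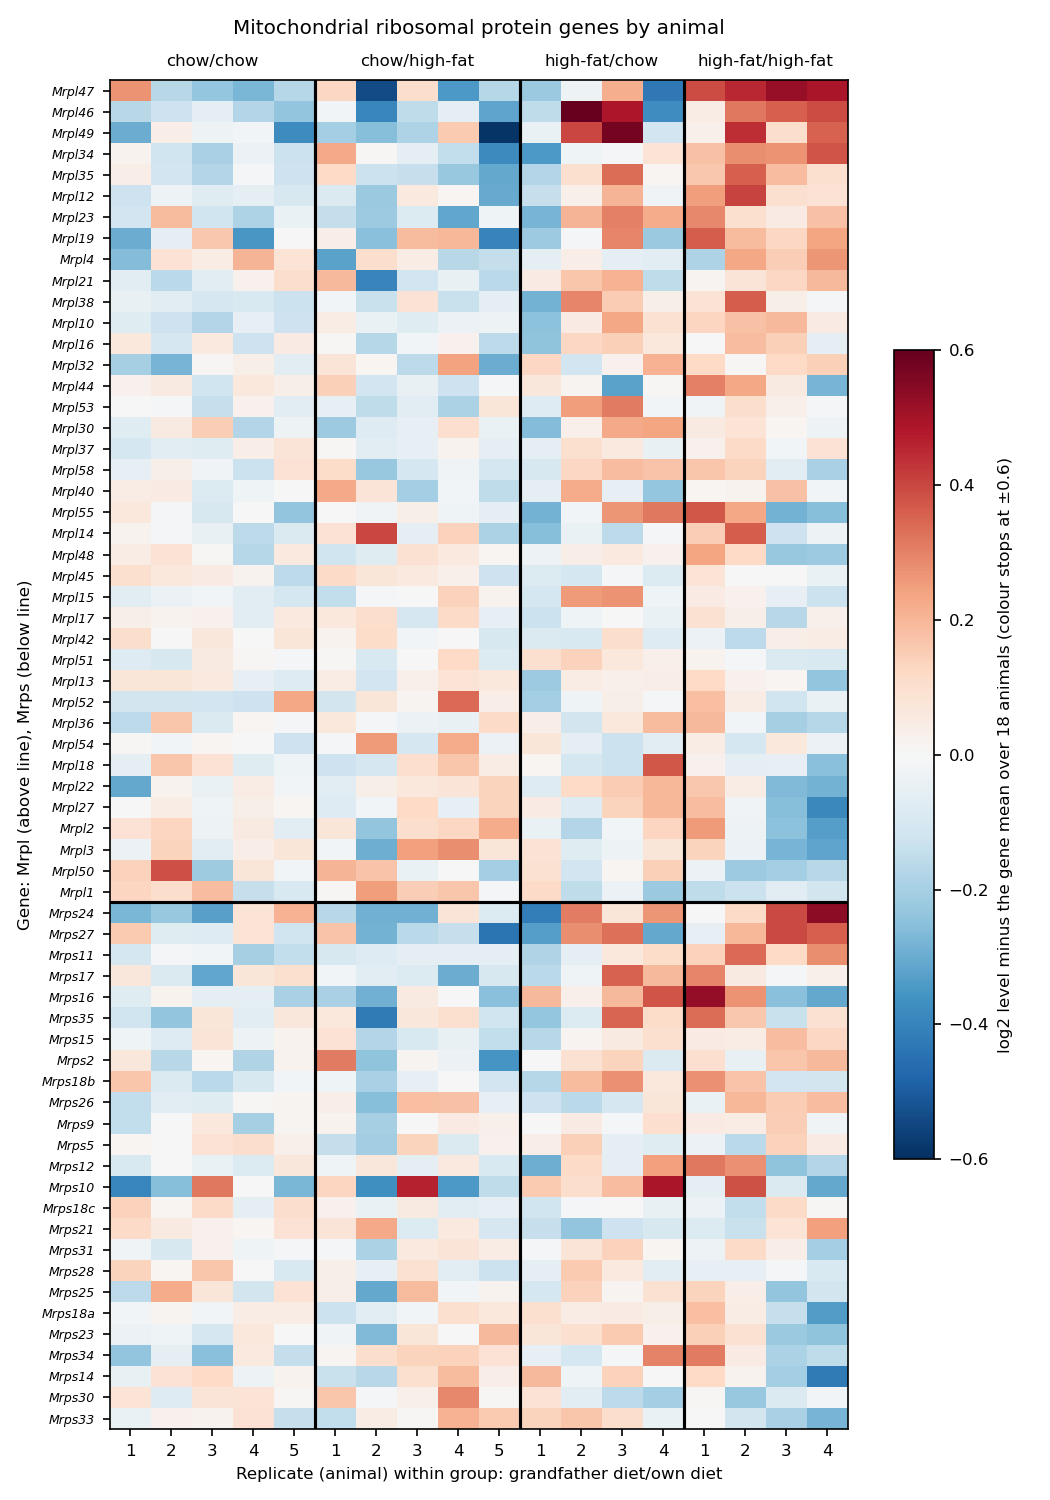
Each member (lines, large subunit above small) in each of the 18 animals (columns, by group), coloured by its log2 signal minus its mean over all animals, with genes in the order of their founder-diet difference at own high-fat diet and colours ending at ±0.6. Mrpl47 is high in all 4 high-fat/high-fat animals, while Mrpl27 and Mrps16 are high in replicate 1 and low in replicates 3 and 4.

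The diet of the founder was compared first among females on the high-fat diet. In the high-fat/high-fat group 22 of 39 large subunit genes and 14 of 25 small subunit genes were higher than in the chow/high-fat group, by a median of 0.062 and 0.052 log2, against 0.0011 over all genes. After Benjamini-Hochberg adjustment of limma's moderated test over all genes, 0 of 64 members passed at 0.05, as did 0% of all genes. At an unadjusted p under 0.05 there were 16 of 64 members, 25%, against 13.3% of all genes. Of these, 13 were higher, against a background of 6.68%, and 3 lower, against 6.63%. In 7 members every high-fat/high-fat animal lay above every chow/high-fat animal (background 2.37%), namely Mrpl10, Mrpl12, Mrpl23, Mrpl46, Mrpl47, Mrps11 and Mrps17. Mrpl1 was the reverse case (background 2.34%). With the values as deposited, without normalization between arrays, the median over all genes was itself shifted by 0.18 log2 in this comparison, 1689 genes passed and 21 of the 64 members did, all higher. The sample titles end in codes read here as wells, with their number as the well column. Some codes recur in several titles, so a column may pool plates, and the labels name no plate. With the well column as a block the large subunit median was -0.0021. In the fit as reported, all 7 measured fat cell markers were lower (median -0.11, 1 at an unadjusted p under 0.05). The 4 red blood cell markers were lower too (-0.033). Higher were the 4 measured endothelium markers (0.13), 4 of nerve and Schwann cells (0.18) and 5 of 6 tendon markers (0.26). Slow fibre markers were mixed, 7 of 13 higher. No marker outside the fat cell list was at that p, and their part was not tested.

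Mrpl47 (probe set 10822726), a large subunit protein near the mouth of the exit tunnel, had the smallest p. Its log2 signal was 9.63, 8.97, 9.61, 9.16 and 9.33 in the chow/high-fat animals and 9.90, 9.96, 10.03 and 9.99 in the high-fat/high-fat animals. In the chow-fed groups it was 9.78, 9.34, 9.27, 9.23 and 9.34 for chow/chow and 9.28, 9.47, 9.72 and 9.08 for high-fat/chow. All 4 high-fat/high-fat animals were above the other 14 animals, within a narrow span. The difference at own high-fat diet was 0.63 log2 (SE 0.14, 95% confidence interval 0.33 to 0.92, 1.55-fold), with a limma adjusted p of 0.0990. Within the well columns that held both groups it was 0.64 in column 5 (2 animals against 1) and 0.69 in column 7 (3 against 1). These columns may pool plates. The probe set shared by Actl6a and Mrpl47 differed by 0.27 (SE 0.092) the same way. Ndufb5, across the divergent promoter printed above, differed by -0.016 (SE 0.071).

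Mrps11 (10708004) belongs to the platform of the small subunit. It read 9.14, 9.16, 9.19, 9.19 and 9.18 in the chow/high-fat group and 9.38, 9.58, 9.36 and 9.52 in the high-fat/high-fat group, which do not overlap. The difference was 0.29 log2 (SE 0.069, limma adjusted p = 0.101). Its divergent neighbour Mrpl46 (10722885), a protein of the central protuberance of the large subunit, read 8.93, 8.55, 8.79, 8.89 and 8.63 against 8.99, 9.26, 9.30 and 9.33, without overlap (0.47 log2, SE 0.15). In the chow-fed high-fat lineage Mrpl46 was split, at 8.79, 9.57, 9.43 and 8.57, and 2 of these animals exceeded every other animal of the series. Deviations of the pair from their group means had a Pearson's r of 0.082 over the 18 arrays, a description over animals that also share array quality.

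Mrpl12 (10740153) forms the flexible stalk that recruits translation factors and is also known to bind the mitochondrial RNA polymerase. It read 9.35, 9.22, 9.50, 9.45 and 9.14 in the chow/high-fat group and 9.69, 9.84, 9.53 and 9.53 in the high-fat/high-fat group. The groups do not overlap, by a small margin, and the difference was 0.32 (SE 0.086, limma adjusted p = 0.134). Mrpl10, at the base of this stalk, was higher by 0.16 (SE 0.075), and Mrpl23, at the exit of the tunnel, by 0.31 (SE 0.105).

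Mrpl35 (10863153), a large subunit protein, read 9.97, 9.72, 9.71, 9.62 and 9.54 against 10.01, 10.20, 10.03 and 9.94, with a slight overlap (0.34, SE 0.096, limma adjusted p = 0.146). Mrpl34, another, differed by 0.35 (SE 0.10), and Mrpl49 by 0.45 (SE 0.15). In the small subunit Mrps24, which lines the entry of the messenger, differed by 0.41 (SE 0.15, limma adjusted p = 0.225) and Mrps27, a pentatricopeptide repeat protein, by 0.40 (SE 0.14, 0.227). Mrps15 differed by 0.17 and Mrpl21 by 0.21. None of these passed the adjusted test.

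The 3 members with lower values were Mrpl1, Mrps33 and Mrps30. Mrps33 (10862103), a small subunit protein, read 8.28, 8.47, 8.43, 8.64 and 8.59 in the chow/high-fat group and 8.42, 8.32, 8.23 and 8.15 in the high-fat/high-fat group, which overlap (-0.20, SE 0.078, limma adjusted p = 0.264). Mrpl1, of the mobile L1 stalk, read 8.74, 8.99, 8.88, 8.90 and 8.72 against 8.58, 8.61, 8.67 and 8.63 (-0.23, SE 0.083). Mrps30, which despite its name sits in the large subunit in structures, differed by -0.18 (SE 0.078).

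**Figure D3:**
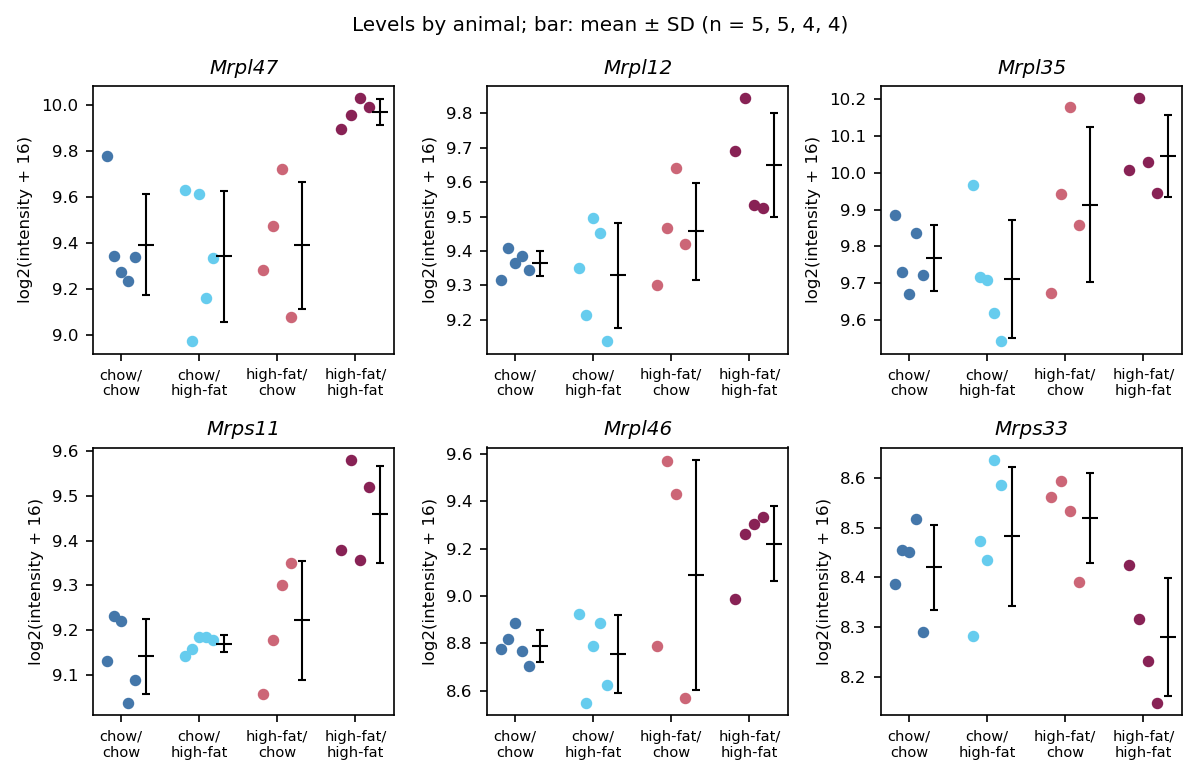
Log2 signal (vertical axes) of the leading members in each animal (points) by group (horizontal axes), with the group mean ± SD beside them. The 4 high-fat/high-fat animals sit between 9.90 and 10.03 for Mrpl47, above the other groups, while in Mrps33 they run from 8.15 to 8.42.

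The high-fat/high-fat group was not uniform, and the high-fat/chow and chow/high-fat groups were also spread, as their SDs below show. The subunit score of an animal is the mean over members of the log2 signal after each member was centred over all animals. For the large subunit it was 0.115, 0.112, 0.004 and -0.017 in high-fat/high-fat replicates 1 to 4, and for the small subunit 0.104, 0.069, -0.007 and -0.027. Replicates 1 and 2 were high and replicates 3 and 4 near the mean of the series. The score of 79 nuclear respiratory chain subunits split the same way (0.113, 0.061, -0.119 and -0.123), and so did that of the 4 measured of 6 red blood cell markers (0.848, 0.837, -0.624 and -0.749). The summed intensity of these markers ran from 1462 to 6059 in this group and from 1254 to 6043 in the chow/high-fat group, and none of the 4 was at 0. Replicates 1 and 2 were in well column 9, where there was no chow/high-fat animal, replicate 3 was in column 5 and replicate 4 in column 7. The part of these in the members' values was not tested.

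Without replicates 1 and 2, an alternative chosen after seeing the data, the median founder-diet difference at own high-fat diet was -0.051 for the large and -0.025 for the small subunit. Both medians thus turned in sign without these 2 animals. They had the highest scores of their group, so lower medians without them follow from the choice. Within well column 5 the medians were -0.037 and 0.0091, and within column 7 they were 0.024 and 0.0089. Mrpl27 (10737527), a large subunit protein close to the peptidyl transferase centre, read 9.88, 9.67, 9.44 and 9.30 in the high-fat/high-fat group and 9.62, 9.68, 9.81, 9.64 and 9.83 in the chow/high-fat group. Without replicates 1 and 2 it was lower by 0.35 log2 on founder high-fat diet and passed (log2 difference -0.35, limma adjusted p = 0.0403), among 296 genes that did. Mrpl47 and Mrps11, by contrast, were high in all 4 animals.

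**Figure D4:**
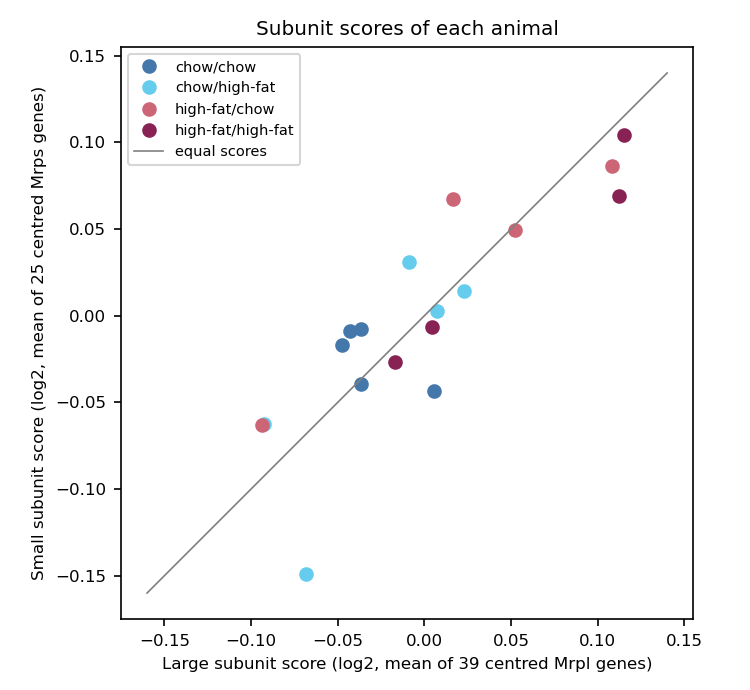
Small subunit score (vertical axis, log2) against large subunit score (horizontal axis, log2) of each animal (points, coloured by group), with a line where both are equal. Replicates 1 and 2 of the high-fat/high-fat group reach 0.115 and 0.112 for the large subunit, while replicates 3 and 4 lie at 0.004 and -0.017.

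The scores also allow the subunits to be set against each other. The large subunit score was -0.032 ± 0.021 in chow/chow (SD, n = 5), -0.028 ± 0.050 in chow/high-fat (n = 5), 0.021 ± 0.085 in high-fat/chow (n = 4) and 0.054 ± 0.070 in high-fat/high-fat (n = 4). The small subunit score in the same order was -0.023 ± 0.017, -0.033 ± 0.074, 0.035 ± 0.067 and 0.035 ± 0.062. The pooled SD within groups was 0.0586 for either score, and the animals of the 4 groups overlapped in both. The large minus small difference was -0.0085 ± 0.035, 0.0048 ± 0.047, -0.014 ± 0.032 and 0.019 ± 0.016 in the same order, and the groups overlap. No test was made on scores over the members.

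The own diet was then compared within the high-fat lineage, with the same high-fat/high-fat animals, so the values here and at own high-fat diet share those 4 arrays. Of the large subunit genes 24 of 39 were higher on the high-fat diet (median 0.035 log2) and of the small subunit genes 13 of 25 (0.0026), against -0.0013 over all genes. Both medians turned in sign without high-fat/chow replicate 1, to -0.0063 and -0.057, and the small subunit median also without high-fat/high-fat replicate 1, to -0.049. Without high-fat/high-fat replicates 1 and 2 together they were -0.015 and -0.072, and 2 members passed, both lower, among 205 genes that did. With all animals no member passed, 0 of 64, as did 0% of all genes. At an unadjusted p under 0.05 limma listed 7 of 64, 10.9%, near the 9.25% of all genes, 6 of them higher (background 4.86%) and 1 lower (4.40%). Mrpl34, Mrpl47 and Mrps11 were higher without overlap (background 2.06%) and Mrpl51 lower (2.06%). Mrpl47 differed by 0.58 (SE 0.15, limma adjusted p = 0.263) and Mrps11 by 0.24 (SE 0.073, 0.386). Mrpl34 (10787281) read 9.09, 9.41, 9.43 and 9.52 on chow and 9.62, 9.72, 9.71 and 9.82 on the high-fat diet (0.35, SE 0.11, limma adjusted p = 0.378). Mrpl12 differed by 0.19, Mrps26 by 0.20 and Mrps33 by -0.24 (SE 0.082, 0.417). Some markers of other cells, and those of slow fibres, lay mostly to 1 side here too. The 8 fibroblast and matrix markers were all lower (median -0.24, 2 at an unadjusted p under 0.05), with sums of 6459 to 9792 in high-fat/chow and 6867 to 8139 in high-fat/high-fat. The 8 leukocyte markers were all lower too (-0.22, 3 at that p, 1049 to 1357 and 938 to 1126), as were 5 of 6 tendon markers (-0.22, 1 at that p, 2866 to 4296 and 2770 to 3858). Of the slow fibre markers 12 of 13 were higher (0.41, 0 at that p, 6843 to 16023 and 5995 to 20541). Of the nerve and Schwann cell markers 3 of 4 were higher (0.17, 1 at that p), and all 4 measured red blood cell markers were (0.12, 0 at that p). Of the fat cell markers 5 of 7 were lower (-0.14), with 1 of the higher ones at that p. None of these markers was at 0, and their part in the members' values was not tested.

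For the own diet in the chow lineage the member differences ran from -0.16 to 0.22 log2, the narrowest range of the 4 simple comparisons. Of the large subunit genes 20 of 39 were higher (median 0.0074 log2) and of the small subunit genes 10 of 25 (-0.023), against -0.0031 over all genes; as deposited, the large subunit median turned to -0.15, with all genes at -0.13. Leaving out 1 animal turned the large subunit median in sign (without chow/chow replicate 4 or 5 or chow/high-fat replicate 4, lowest -0.011) and also the small one (without chow/chow replicate 5 or chow/high-fat replicate 2, highest 0.017). No member passed, 0 of 64, against 0% of all genes, 1, higher, had an unadjusted p under 0.05 (background 4.80%, of which 2.49% higher and 2.31% lower) and no member separated the groups without overlap (background 0.419% higher and 0.340% lower). That member was Mrps34 (10732253), a small subunit protein, at 7.42, 7.60, 7.40, 7.71 and 7.51 on chow and 7.67, 7.76, 7.79, 7.79 and 7.74 on the high-fat diet (0.22, SE 0.094, limma adjusted p = 0.9996). The chow range reaches into the high-fat range through 1 animal. The next by p were Mrps5 (-0.10), Mrps18c (-0.078), Mrpl14 (0.13), Mrpl4 (-0.13) and Mrpl52 (0.12). The 8 fibroblast and matrix markers were all lower on the high-fat diet (median -0.25, 3 at an unadjusted p under 0.05), with sums of 7171 to 9502 in chow/chow and 5503 to 8081 in chow/high-fat. The 6 tendon markers were all lower (-0.32, 4 at that p, 2855 to 4259 and 1637 to 4500), as were 7 of 8 leukocyte markers (-0.16, 0 at that p, 828 to 1239 and 808.0 to 951) and all 13 slow fibre markers (-0.33, 0 at that p, 13093 to 22713 and 7277 to 22104). Of the fat cell markers 5 of 7 were higher (0.17, 2 at that p), and so were all 4 measured red blood cell markers (0.29, 0 at that p). The 4 measured endothelium markers (-0.14) and the 4 of nerve and Schwann cells (-0.18) were all lower, with 0 at that p. The part of these markers was not tested.

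Among females on chow, 42 of 64 members (65.6%) were higher with the founder's high-fat diet, against 49.5% of all genes. Of the large subunit genes 24 of 39 were higher in the high-fat/chow group (median 0.041 log2) and of the small subunit genes 18 of 25 (0.079), against -0.0017 over all genes; as deposited, the large subunit median turned to -0.034, with all genes at -0.056. No member passed, 0 of 64, against 0.00791% of all genes, and 2 of 64, 1 each way, had an unadjusted p under 0.05 (background 8.75%, of which 4.34% higher and 4.41% lower). These were Mrpl49 (0.34, SE 0.15, limma adjusted p = 0.550) and Mrps21. Mrps21 (10825091) read 11.51, 11.45, 11.42, 11.41 and 11.48 in chow/chow and 11.26, 11.16, 11.27 and 11.30 in high-fat/chow, lower without overlap (background 1.75%; -0.21, SE 0.079, limma adjusted p = 0.478). Its second probe set gave -0.21 (SE 0.080). Mrps16 (10779159) read 7.62, 7.72, 7.64, 7.64 and 7.50 against 7.89, 7.73, 7.89 and 8.08, higher without overlap (background 1.53%; 0.27, SE 0.13). Mrps10 differed by 0.35 (SE 0.17), Mrpl53 by 0.16 and Mrpl15 by 0.16. Of the slow fibre markers 12 of 13 were lower in this comparison, with a median of -0.73 and 6 at an unadjusted p under 0.05. The 4 measured nerve and Schwann cell markers were lower too (-0.14, 1 at that p). Higher were 6 of 8 leukocyte markers (0.11, 1 at that p) and all 4 measured red blood cell markers (0.14, 0 at that p). The part of these markers was not tested.

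**Figure D5:**
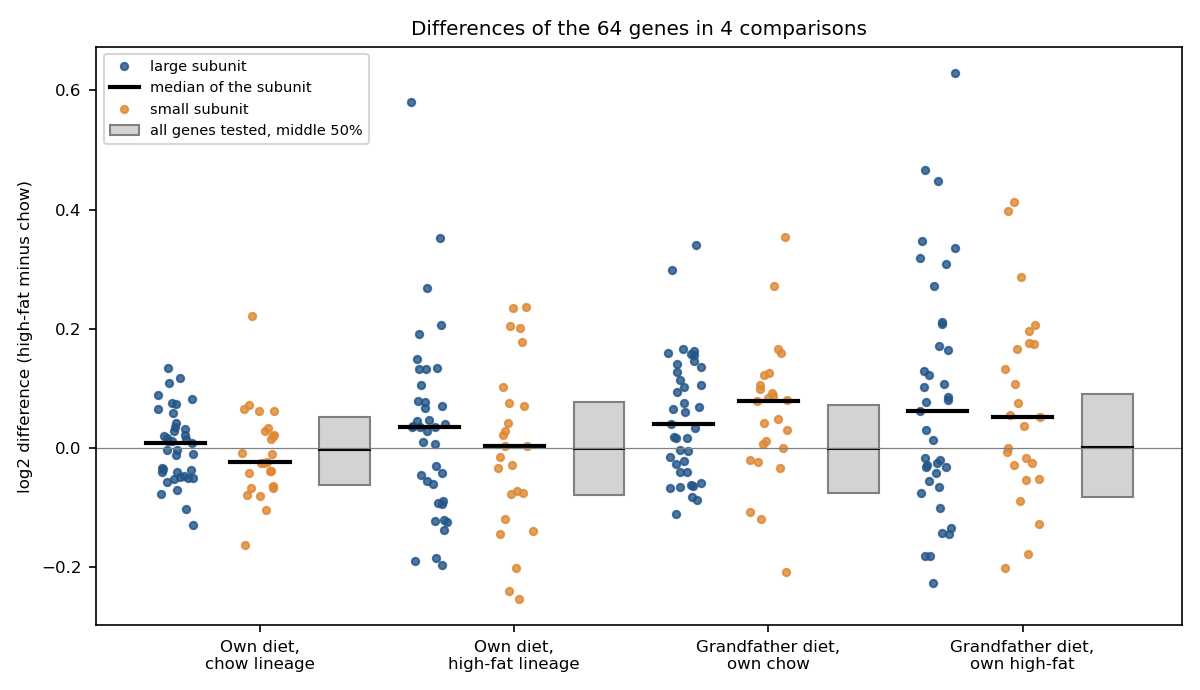
Log2 difference, high-fat minus chow (vertical axis), of each member (points) in the 4 simple comparisons (horizontal axis), by subunit, with the subunit's median as a line; grey bars span the middle 50% of all genes tested, with their median. At own high-fat diet the medians of the founder-diet difference are 0.062 and 0.052, and Mrpl47 stands highest at 0.63.

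Whether the own diet acted differently in the lineages was tested by the interaction, the own-diet difference in the high-fat lineage minus that in the chow lineage. No member passed, 0 of 64, against 0% of all genes, and 5 of 64 had an unadjusted p under 0.05 (7.81%, background 6.83%, of which 3.57% higher and 3.26% lower). Mrpl47 had the largest interaction, 0.63 (SE 0.20, limma adjusted p = 0.649), followed in p by Mrps33 (-0.30, SE 0.11, 0.649), Mrpl34 (0.33), Mrps11 (0.21) and Mrpl22 (-0.29). Mrps27 stood at 0.40. The medians were 0.024 for the large and 0.0061 for the small subunit, against 0.0042 over all genes. They were 0.107 and 0.114 with arrays centred on medians, and 0.31 and 0.32 as deposited, where all genes stood at 0.24 and Mrps33 at 0.0076. Both turned in sign without high-fat/chow replicate 1 (-0.019 and -0.024) or high-fat/high-fat replicate 2 (-0.010 and -0.0085), and the small one also without chow/high-fat replicate 2 (-0.011) or high-fat/high-fat replicate 1 (-0.00998). All 13 slow fibre markers were higher in the interaction (median 0.76, 0 at an unadjusted p under 0.05). All 4 measured nerve and Schwann cell markers were higher too (0.36, 1 at that p). Lower were 6 of 7 fat cell markers (-0.16, 1 at that p) and all 4 measured red blood cell markers (-0.17, 0 at that p). The part of these markers was not tested.

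Averaged over both own diets, the founder's high-fat diet went with higher values in 25 of 39 large subunit genes (median 0.061 log2) and 17 of 25 small subunit genes (0.041), against -0.0027 over all genes. None of the 64 passed, against 0.198% of all genes, and 17 of 64 had an unadjusted p under 0.05, 26.6% against 14.6% of all genes. Of these, 15 were higher (background 7.75%) and 2 lower (6.89%). Smallest in p were Mrps11 (0.18, SE 0.049, limma adjusted p = 0.0963), Mrpl49 (0.39, SE 0.11, 0.101), Mrpl35 (0.24), Mrpl46 (0.38) and Mrpl12 (0.21). Mrpl49 (10728115), a large subunit protein, read 8.21, 8.66, 8.82 and 8.14 in high-fat/chow and 8.28, 8.70, 8.36 and 8.61 in high-fat/high-fat, against 7.87 to 8.29 in chow/chow and 7.67 to 8.41 in chow/high-fat. Without high-fat/chow replicate 1, an animal with a low large subunit score of -0.094, 7 members passed in this average (Mrps24, Mrpl35, Mrpl23, Mrpl10, Mrps11, Mrpl46 and Mrpl49), among 303 genes. Of the slow fibre markers 10 of 13 were lower in this average (median -0.45, 4 at an unadjusted p under 0.05). Lower too were 5 of 7 fat cell markers (-0.031, 1 at that p). Higher were 6 of 8 leukocyte markers (0.041, 1 at that p) and all 6 tendon markers (0.10, 0 at that p). Also higher were 7 of 8 fibroblast and matrix markers (0.036, 0 at that p). The part of these markers was not tested. The own diet averaged over both lineages gave medians of 0.0072 and -0.025. They ran from -0.021 to 0.018 and from -0.038 to 0.0049 as each animal was left out. In that average 0 of 64 passed the threshold (background 0.0158%) and 5 of 64 had an unadjusted p under 0.05. These were Mrps11, Mrpl47, Mrpl34, Mrps26 and Mrpl14, all higher (background 6.73%, of which 3.29% higher and 3.44% lower). All 8 fibroblast and matrix markers (median -0.23, 5 at that p), 8 leukocyte markers (-0.21, 6) and 6 tendon markers (-0.27, 2) were lower. The 4 endothelium markers were lower too (-0.065, 0). Of the fat cell markers 5 of 7 were higher (0.030, 1 at that p), as were 9 of 13 slow fibre markers (0.047, 0). All 4 red blood cell markers were higher (0.21, 0). Nerve and Schwann cell markers were split (1 at that p). The part of these markers was not tested.

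A panel of members chosen for their role gave no common direction. Values are the founder-diet differences at own high-fat diet in log2. Around the peptidyl transferase centre and the tunnel wall, Mrpl3 differed by -0.18 (SE 0.11), Mrpl4 by 0.21 (SE 0.10) and Mrpl16 by 0.13 (SE 0.083). At the membrane side of the tunnel Mrpl45, which tethers the ribosome to the inner membrane, differed by -0.021 (SE 0.064), against 0.31 for Mrpl23 beside it. Mrpl44, a protein related to RNase III, differed by 0.11 (SE 0.10). Mrpl58, which can release peptides from stalled ribosomes, differed by 0.078 (SE 0.086). In the small subunit Mrps12, of the decoding centre, differed by 0.052 (SE 0.11), Mrps5 and Mrps2 by 0.055 (SE 0.077) and 0.17 (SE 0.10), and Mrps16 by 0.20 (SE 0.13). Mrps34 differed by -0.089 (SE 0.099). The 3 genes of the S18 family, of which Mrps18a sits in the large subunit in structures, differed by -0.052 (SE 0.081), 0.13 (SE 0.097) and -9.5e-05 (SE 0.063) for Mrps18a, Mrps18b and Mrps18c. Mrpl11, Mrpl24, Mrps22 and Mrps36 are not analysed here.

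Members differed in how far animals of 1 group lay apart. The pooled SD within groups was smallest for Mrpl37 (0.065 log2), Mrpl51 (0.066) and Mrps18c (0.077), and largest for Mrps10 (0.29), Mrpl46 (0.25) and Mrpl49 (0.25). Mrps10 ran from 7.76 to 8.64 over the 18 animals, and Mrpl37 from 10.29 to 10.51. The median SD was 0.144 for the large subunit, 0.137 for the small subunit and 0.136 over all genes. After removal of group means, pairs of members had a median Pearson's r over the 18 arrays of 0.145 within the large subunit, 0.114 within the small subunit and 0.124 between them, against 0.0 over all pairs of genes tested. These r values describe animals that share array and RNA quality. The quartiles ran from -0.123 to 0.366 for pairs of a large with a small subunit gene, so single pairs differed widely.

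Probe sets that could not be given to 1 gene were read separately. At own high-fat diet the founder-diet difference was 0.38 (SE 0.099) for the one shared by Mrpl57 and Ska3, 0.41 (SE 0.15) for Mrpl20 and Ankrd65 and 0.25 (SE 0.085) for Mrpl43 and Sema4g. It was 0.075 (SE 0.065) for Gga3 and Mrps7 and -0.030 (SE 0.072) for Pgap6 and Mrpl28, and -0.11 and -0.12 for the 2 shared by Mrpl41 and Mrpl41l1. Among the 4 members with a second probe set (Mrpl40, Mrpl42, Mrpl45 and Mrps21), Mrpl40 differed in sign between its probe sets for the own diet in the chow lineage (-0.011 and 0.00041) and for the founder's diet at own chow (-0.026 and 0.0063), and Mrpl45 in the interaction (0.062 and -0.076). The second probe set of Mrpl42 gave -0.23 for the founder's diet at own chow (SE 0.078) and -0.19 in the founder-diet average (SE 0.056), both at an unadjusted p under 0.05, against -0.088 and -0.060 for the one used.

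Other genes of mitochondrial translation were counted from lists chosen with earlier results of these data known. At own high-fat diet the founder-diet difference was positive in 12 of 15 translation factors (median 0.047 log2), 16 of 22 assembly and rRNA modification genes (0.086), 12 of 17 mitochondrial aminoacyl-tRNA synthetases (0.059) and 3 of 12 genes of mitochondrial transcription and DNA maintenance (-0.030). It was positive in 37 of 79 nuclear respiratory chain subunits (-0.016) and 17 of 38 cytosolic ribosomal proteins (-0.026). In the list of mitochondrial ribosomal proteins with other names, which also held the insertase Oxa1l, it was positive in 3 of 6 genes. At an unadjusted p under 0.05 there were 8 higher and 13 lower of the 79 respiratory chain subunits. Of the 38 cytosolic ribosomal proteins 3 higher and 6 lower were at that p, beside 13 higher and 3 lower of the 64 members. The background was 6.68% higher and 6.63% lower, so members at that p were not particular to the mitochondrial ribosome. None of the genes of these other lists passed in this comparison. In the founder-diet average, Ddx28, a helicase of large subunit assembly, differed by 0.23 (SE 0.053, limma adjusted p = 0.0668), and Nsun4, a methyltransferase of the ribosomal RNA, by -0.25. Among factors Mtif2, the initiation factor, differed by -0.19 and Slirp, which stabilises mitochondrial messengers, by 0.21. Tfam, which packages mitochondrial DNA, differed by -0.16, and Tfb2m, a transcription factor of mitochondria, by -0.12. The synthetases Yars2 and Wars2 differed by 0.19 and 0.23, and Aurkaip1, a small subunit protein, by 0.19. The insertase Oxa1l differed by 0.054, Clpx by -0.21 and the protease Lonp1 by 0.27. In the own-diet average the values of smallest p were Wars2 (0.30), Gatb (0.14), Twnk (0.089), Ssbp1 (-0.11), Slirp (-0.14), Lrpprc (-0.082), Aurkaip1 (-0.11), Dap3 (0.047), Malsu1 (-0.20), Mpv17l2 (0.15), Ppargc1b (0.17) and Foxk1 (0.078), none of which passed.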

How the data were processed

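Each of 18 muscles gave 200 ng of RNA for 1 Affymetrix whole-transcript array, as the labels' protocols say. The deposited table holds linear intensities for 20917 probe sets, made with Affymetrix Expression Console and PLIER per the submitters' processing notes, with settings not given in the sources used here. The log2 of intensity plus 16 was quantile normalized, which removes shifts of whole arrays (limma 3.58.1, R 4.3.3). The probe table names 18197 probe sets with 1 symbol, 960 with several and leaves 1760 without. Each gene kept its brightest such probe set, and genes with a mean at or under percentile 25 (5.28 log2) were dropped, leaving 12642. limma (lmFit, eBayes) fitted the 4 group means to all arrays together, and each of 7 comparisons was tested two-sided with Benjamini-Hochberg adjustment at 0.05. Errors are standard errors of the fitted difference, and intervals are at 95%. The fit was tried on simulated independent noise with known shifts, which holds no relatives, array quality or batches.

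The members and the gene lists were chosen with earlier results of these data known. Named members are, in the 4 simple comparisons and the interaction, the 3 Mrpl and 3 Mrps genes of smallest p, a panel of roles, the 3 largest and 3 smallest spreads, genes whose probe sets differ in direction, and 2 genes of each related list. Genes without overlap, with an unadjusted p under 0.05 or called under 1 setting, the divergent neighbours and the shared probe sets were named after their values were seen. Replicate numbers follow the accession order. The log2 differences of the 32 pairs of arrays within groups had an SD of at least 0.189, so no array was treated as a copy. Promoters came from the RefSeq table of GRCr8, and the files give no genomic positions.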

Additional observations from a re-analysis of the deposited data

Results flagged for a closer look

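In 100 groups of animals examined for the scores and the named members, the highest or lowest animal stood apart from the rest by Dixon's 95% criterion in 6, where chance gives about 5. The large subunit score of chow/chow replicate 2 was 0.005, against -0.047 to -0.037 in the other animals of its group. The large minus small difference of high-fat/high-fat replicate 2 was 0.043, against 0.010 to 0.011. Mrpl47 in chow/chow replicate 1 read 9.777 log2, against 9.232 to 9.340, and is the highest value of Mrpl47 outside the high-fat/high-fat group. Mrpl22 read 7.103 in the same animal, against 7.366 to 7.452. Mrpl4 in high-fat/chow replicate 2 read 10.483, against 10.380 to 10.391, and Mrpl52 in chow/chow replicate 5 read 9.659, against 9.301 to 9.317.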

How the results depend on the processing

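No fixed pairing was used because the titles carry no replicate numbers shared between groups. They carry animal numbers, and 8 pairs of neighbouring numbers ran across the own diets within a lineage. The labels do not call these litters or pairs, and the neighbours were given a random block as an alternative. The counts of members past the threshold were 0 in all 7 comparisons under most settings. The exceptions concern the founder's diet and the own diet in the high-fat lineage. For the members of smallest p in the 4 simple comparisons and the interaction, 30 values were recomputed under 33 settings. Of the 984 values this gave, 6 passed the threshold as deposited, 3 turned in direction, and the others kept both. Further members passed as deposited, 21 in all. As deposited, Mrpl14 was -0.024 and Mrpl52 -0.030 for the own diet in the chow lineage, and Mrps33 was 0.0076 in the interaction.

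As deposited, 21 members and 1689 genes passed for the founder's diet at own high-fat diet, with 35 members at an unadjusted p under 0.05 (36.1% of all genes). The large and small subunit medians were then 0.28 and 0.30 there, -0.15 and -0.17 for the own diet in the chow lineage, 0.17 and 0.15 in the high-fat lineage, -0.034 and 0.012 for the founder's diet at own chow, 0.31 and 0.32 in the interaction and 0.12 and 0.14 in the founder-diet average. The medians of all genes were 0.18, -0.13, 0.11, -0.056, 0.24 and 0.059 in the same order. Genes passing numbered 1 for the own diet in the chow lineage, 0 for the founder's diet at own chow, 1 in the interaction, 4 in the own-diet average and 0 in the founder-diet average. With arrays centred on medians, the small subunit median was 0.13 for the founder's diet at own high-fat diet, the interaction medians were 0.11 and 0.11, and 5 and 0 genes passed in the own-diet and founder-diet averages.

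Counts of all genes in the own-diet average, 2 as reported, and in the founder-diet average, 25 as reported, moved with many settings. They were 0 and 0 with offset 1, 6 and 38 with offset 64, 5 and 43 with trended and robust eBayes, 6 and 252 with array weights, 15 and 0 with the well column as a block, 14 and 0 with neighbouring animals as a random block, and 0 and 0 without the 2 arrays of lowest median. A filter at the 50th percentile gave 41 in the latter. For the founder's diet at own chow, 1 as reported, 0 passed with offsets 1 and 64 and with the well column, and 2 with its 2 groups alone. At own high-fat diet offset 1 gave 1. With array weights 4 members passed in the founder-diet average (Mrpl35, Mrps11, Mrpl46 and Mrpl49). With the well column the large subunit median at own high-fat diet was -0.0021.

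Without high-fat/high-fat replicates 1 and 2 together, 205 genes and 2 members, Mrpl27 (-0.40) and Mrps16 (-0.47), passed for the own diet in the high-fat lineage, where the small subunit median was -0.072. For the founder's diet at own high-fat diet 296 genes and 1 member passed, with medians of -0.051 and -0.025. Genes passing were 3 for the founder's diet at own chow, 47 in the interaction, and 0 and 76 in the own-diet and founder-diet averages.

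Leaving out each animal in turn gave 0 to 1 genes for the own diet in the high-fat lineage, 0 to 2 for the founder's diet at own chow, 0 to 56 at own high-fat diet, 0 to 14 in the own-diet average and 0 to 303 in the founder-diet average. Members passing in that average ran from 0 to 7, the 7 without high-fat/chow replicate 1. For the own diet in the high-fat lineage the large subunit median ran from -0.0063 to 0.055 and the small from -0.057 to 0.029. The causes were not tested. The signal over background of single probes is not in the table, so its limit on dim genes is unknown.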
